A study of Mus musculus with 14 samples.

Results

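TNF signaling and its NF-kappaB feedback were followed through 9 genes, taken by their symbols from the deposited table of 46904 genes: the ligand Tnf, the receptors Tnfrsf1a, Tnfrsf12a and Cd40, the transcription factor subunits Nfkb2 and Relb, and the inhibitors and regulators Nfkbia, Tnfaip3 and Birc3. All 9 were found in the table. RNA was measured by sequencing polyA RNA from 1 brain hemisphere per library, 48 h after a middle cerebral artery occlusion (MCAO) of 20 min in mice 12 weeks old. The 4 groups are the contralateral (CL) hemisphere of wild-type (Cort+/+) mice with 3 libraries, the ischemic (MCAO) hemisphere of Cort+/+ mice with 3 libraries, and the CL and MCAO hemispheres of mice lacking the neuropeptide cortistatin (Cort-/-), with 3 and 5 libraries. Cort-/- mice carry a deletion of Cort on a C57BL/6J background, and the animals of every group were operated on, so that CL is the uninjured side of an injured brain and not tissue of a sham-operated mouse. The study describes the replicates as independent biological samples and states that where variability was large the clearly grouped replicates were kept. Its methods give 5 MCAO replicates, while the Cort+/+ MCAO group here holds 3 libraries, labelled replicates 2 to 4. Why this group holds fewer is not stated, and every comparison with it rests on these 3. The sources do not say whether a CL and an MCAO library of the same number came from the same mouse.

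As background, TNF is a cytokine that microglia and infiltrating myeloid cells release within hours of a stroke, and it signals through the receptors encoded by Tnfrsf1a and Tnfrsf1b. Receptor engagement leads to degradation of IkappaB alpha, the inhibitor encoded by Nfkbia that holds NF-kappaB dimers in the cytoplasm, while CD40 and the TWEAK receptor Fn14 (Tnfrsf12a) can also start the noncanonical arm, in which the p100 precursor encoded by Nfkb2 is processed and pairs with RelB. NF-kappaB in turn switches on several of its own brakes, among them Nfkbia and the ubiquitin-editing enzyme A20 (Tnfaip3), so these transcripts are commonly read as feedback.

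The regulatory sequence in front of these genes is shown because the feedback runs through NF-kappaB sites near the start of transcription. RefSeq sequences of the 250 bases before a start were at hand for 7 of the 9 genes (build GRCm38.p6), with 10 starts in all. Relb and Cd40 had none. The motif searched was GGANNTTCC on both strands, and GGNNNTTCC as a looser form. The forms differ only in the bases they allow and do not rank the sites, and binding was not measured. The lines below run 5′ to 3′ toward the start, for the most upstream start where a gene has several, and capitals mark matches to the looser form, every match to the stricter form included. Overlapping matches form 1 run of capitals.
Tnf (chr17:35202008-35202257, minus strand): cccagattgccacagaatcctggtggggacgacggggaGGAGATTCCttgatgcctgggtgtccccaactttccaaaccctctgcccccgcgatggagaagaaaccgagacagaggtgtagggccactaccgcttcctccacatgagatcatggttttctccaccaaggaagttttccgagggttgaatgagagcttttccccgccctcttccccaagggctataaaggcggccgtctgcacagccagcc
Nfkbia (chr12:55492648-55492897, minus strand): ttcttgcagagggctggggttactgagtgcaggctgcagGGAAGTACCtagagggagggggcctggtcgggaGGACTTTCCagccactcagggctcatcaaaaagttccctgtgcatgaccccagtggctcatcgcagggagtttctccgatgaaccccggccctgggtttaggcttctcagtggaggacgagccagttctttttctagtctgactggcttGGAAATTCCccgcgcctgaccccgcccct
Tnfaip3 (chr10:19015411-19015660, minus strand): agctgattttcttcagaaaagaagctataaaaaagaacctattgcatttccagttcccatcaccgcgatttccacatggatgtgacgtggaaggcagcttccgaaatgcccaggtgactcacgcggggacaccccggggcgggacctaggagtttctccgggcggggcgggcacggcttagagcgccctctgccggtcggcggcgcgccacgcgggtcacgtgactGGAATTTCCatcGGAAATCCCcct
Nfkb2 (chr19:46304487-46304736, plus strand): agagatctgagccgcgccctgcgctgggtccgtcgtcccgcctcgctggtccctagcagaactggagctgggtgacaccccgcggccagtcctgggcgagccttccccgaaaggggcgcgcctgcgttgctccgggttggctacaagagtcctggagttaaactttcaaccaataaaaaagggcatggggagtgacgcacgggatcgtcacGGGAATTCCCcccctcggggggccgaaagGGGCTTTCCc
Tnfrsf1a (chr6:125349473-125349722, plus strand): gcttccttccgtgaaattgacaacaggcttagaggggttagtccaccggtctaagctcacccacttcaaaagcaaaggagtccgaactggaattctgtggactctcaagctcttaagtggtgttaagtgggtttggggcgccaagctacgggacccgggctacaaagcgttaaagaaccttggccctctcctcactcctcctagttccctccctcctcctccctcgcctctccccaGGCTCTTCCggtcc
Tnfrsf12a (chr17:23677450-23677699, minus strand): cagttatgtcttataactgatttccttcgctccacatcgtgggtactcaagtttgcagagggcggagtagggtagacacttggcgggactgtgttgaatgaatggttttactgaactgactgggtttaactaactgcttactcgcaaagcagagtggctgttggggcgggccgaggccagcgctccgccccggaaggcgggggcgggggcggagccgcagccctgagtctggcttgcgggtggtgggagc

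Nfkbia held 2 matches to the stricter form, starting 178 and 29 bases before the start, and a further looser match 211 bases before it. Tnfaip3 held a strict match 24 bases and a looser match 12 bases before its upstream start. Tnf had 1 strict match 212 bases before its start. At Nfkb2 the upstream start had only looser matches, from 39 to 10 bases before it, and a strict match lay in the windows of its other starts. The Tnfrsf1a window held 1 looser match, and the windows of Tnfrsf12a and Birc3 held none. In all, 4 of the 7 genes had a strict match and 5 had a looser match in at least 1 window, which makes 5 and 8 of their 10 windows, against 3.59% and 15.7% of the 32841 windows of all genes. These genes are known for this feedback, so the counts describe the windows and test nothing.

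Expression was given as RPKM, which scales the reads of a gene to its length and to the size of the library. Levels can thus be compared approximately between genes and between libraries. The scale was not identical, as the summed RPKM ran from 347576 in Cort-/- MCAO replicate 3 to 397098 in Cort+/+ CL replicate 3. The libraries held 25990144 to 43033044 reads on genes. Cort itself, the deleted gene, lay between 2.61 and 5.68 RPKM in all 6 Cort+/+ libraries and between 0 and 0.136 RPKM in all 8 Cort-/- libraries, which matches the genotype labels. Brain markers were present throughout, with a summed level of 7 neuronal markers between 1800 and 2430 RPKM. Cort-/- MCAO replicate 3 was the library of lowest depth and Cort+/+ CL replicate 1 had raised levels of several of the 9 genes. Results of some genes are therefore given below with and without them.

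In each of the 4 groups the order of the mean levels began in the same way: Nfkbia was highest, followed by Tnfrsf1a, Tnfrsf12a, Relb, Tnfaip3, Nfkb2 and Birc3. Cd40 and Tnf came last, in either order. Group means ran from 12.3 to 14.6 RPKM for Nfkbia and from 0.0501 to 0.468 RPKM for Tnf. In CL hemispheres neighbours in this order had separate ranges, apart from Nfkb2 and Birc3 in Cort+/+ mice and the pair of Cd40 and Tnf in both genotypes. In MCAO hemispheres the ranges of Nfkbia and Tnfrsf1a overlapped in both genotypes, as did those of Tnfrsf1a and Tnfrsf12a, of Tnfaip3 and Nfkb2, of Birc3 and Tnf, and of Tnf and Cd40, and those of Nfkb2 and Birc3 overlapped in Cort+/+ mice. Nfkbia thus stood above Tnfrsf1a without overlap on the uninjured side, and on the injured side Tnfrsf1a exceeded Nfkbia in Cort-/- MCAO replicates 1 and 4.

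The response to MCAO was the main comparison, and some of the 9 genes passed in it. Averaged over both genotypes, the ligand Tnf, the receptors Tnfrsf1a and Tnfrsf12a and the subunit Nfkb2 rose. The feedback inhibitors Nfkbia and Tnfaip3 had differences of 0.04 and 0.11 on the log2 scale that did not pass the test. Nor did the receptor Cd40, the subunit Relb and Birc3 pass. The genes were not tested against each other. The 4 of 9 genes that passed, all higher in MCAO, stand against 3.43% of the 46102 genes tested that were called in either direction. Of all genes tested 2.52% were called higher, and 5.52% among the 17476 genes averaging 0.5 RPKM or more. The 9 genes were chosen with earlier results of these data known, so their count beside these shares is a description and tests nothing. All genes called in either direction numbered 1579, and 941 without Cort+/+ MCAO replicate 3, 996 without Cort+/+ MCAO replicate 2 and 997 without Cort-/- CL replicate 1. A gene was called at a Benjamini-Hochberg adjusted p under 0.05 over all genes tested with limma on log2(RPKM + 0.1), and all fold changes below are on that scale. The median difference of the 9 genes was 0.52 and that of all genes 0. In tissue that holds many cell types, more cells of a type and more RNA per cell cannot be told apart.

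**Figure D1:**
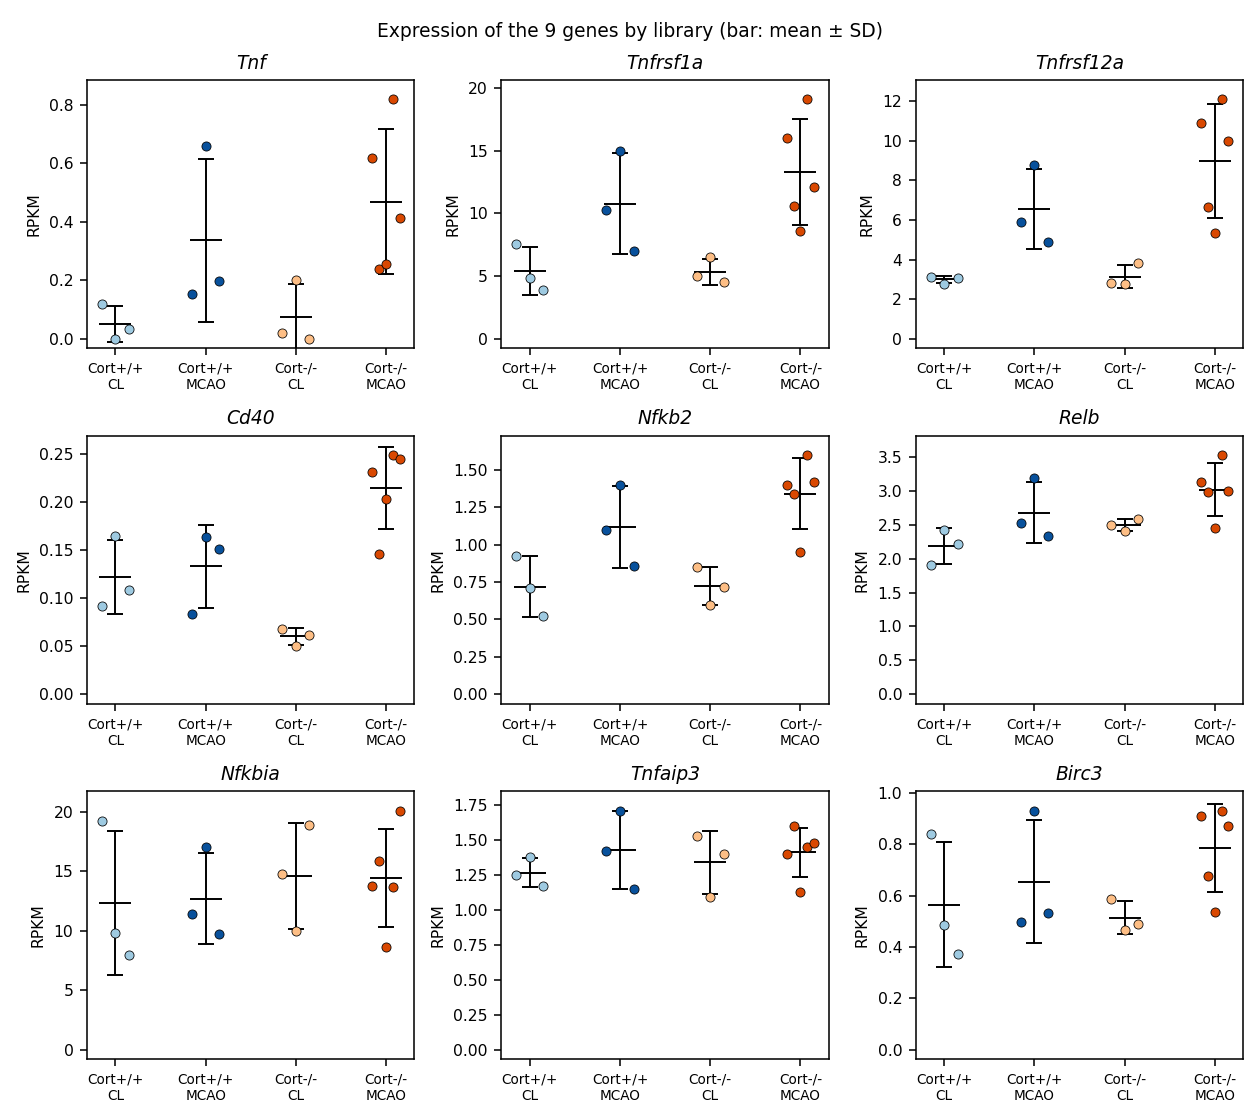
Expression in RPKM (linear axes) of the 9 genes in the 14 libraries, with 1 panel per gene and 1 point per library, and bars for mean ± SD of each group (n = 3, 3, 3 and 5). Tnf and Tnfrsf12a are higher in every MCAO library than in every CL library of the same genotype, Cd40 only in Cort-/- mice, and the points of Nfkbia and Tnfaip3 overlap between hemispheres.

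Tnf, the ligand, was scarce. In CL hemispheres of Cort+/+ mice it measured 0.118, 0 and 0.0327 RPKM in replicates 1 to 3, and 0.153, 0.658 and 0.197 RPKM in MCAO replicates 2 to 4. The Cort-/- libraries held 0.0177, 0.202 and 0 RPKM in CL, and 0.617, 0.239, 0.254, 0.818 and 0.414 RPKM in MCAO. Every MCAO library lay above every CL library of its genotype, although CL replicate 2 of the Cort-/- mice came near the lowest MCAO libraries. These values rest on 0 to 11 reads per library in CL and 9 to 56 reads in MCAO. The mean level was 6.70 times higher in MCAO than in CL in Cort+/+ mice and 6.40 times higher in Cort-/- mice. Averaged over the genotypes the log2 fold change was 1.61 (95% confidence interval 0.82 to 2.40, limma adjusted p = 0.0283). Neither genotype passed on its own, with 1.43 ± 0.54 (SE) in Cort+/+ (limma adjusted p = 0.507) and 1.79 ± 0.48 in Cort-/- mice (limma adjusted p = 0.0926). The call was lost with a pseudocount of 1 RPKM (0.39, limma adjusted p = 0.0783) and in 6 of the 14 fits that left out 1 library, among them the fit without Cort+/+ MCAO replicate 3 (1.37, limma adjusted p = 0.0743).

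Tnfrsf1a encodes TNF receptor 1, which carries the death domain. It measured 7.57, 4.80 and 3.88 RPKM in Cort+/+ CL and 10.3, 15 and 6.98 RPKM in Cort+/+ MCAO hemispheres. For Cort-/- mice the CL values were 4.96, 6.53 and 4.50 RPKM and the MCAO values 16, 10.6, 8.62, 19.1 and 12.1 RPKM. The Cort-/- groups did not overlap, whereas in Cort+/+ mice CL replicate 1 lay above MCAO replicate 4. Over both genotypes the gene rose by a log2 fold change of 1.11 (95% confidence interval 0.64 to 1.59, limma adjusted p = 0.0141), and this call was kept in all 24 alternative fits. Within Cort-/- mice it rose by 1.26 ± 0.29 (SE), with a limma adjusted p of 0.0498 that crossed the threshold in 16 of 25 alternatives. In Cort+/+ mice the value was 0.97 ± 0.33 (limma adjusted p = 0.409), and 1.23 without CL replicate 1 (limma adjusted p = 0.307).

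Tnfrsf12a encodes Fn14, the receptor of the ligand TWEAK, and separated the hemispheres in both genotypes. Its 6 CL libraries spanned 2.78 to 3.81 RPKM. MCAO replicates 2 to 4 of Cort+/+ mice held 5.92, 8.80 and 4.90 RPKM, and the 5 MCAO libraries of Cort-/- mice 10.9, 6.64, 5.35, 12.1 and 9.98 RPKM. No MCAO library of either genotype reached down to a CL library. The log2 fold change over both genotypes was 1.25 (95% confidence interval 0.85 to 1.66, limma adjusted p = 0.00389), it ranged from 1.06 to 1.36 over the alternatives, and it was called in all 24. Within Cort-/- mice alone the gene rose by 1.45 ± 0.25 (SE, limma adjusted p = 0.0169), with the call lost without CL replicate 1 or 2 and when only these 8 libraries were fitted. In Cort+/+ mice the value was 1.06 ± 0.28 (limma adjusted p = 0.275). Tnfsf12, the gene of its ligand TWEAK, stood at 6.07 to 7.41 RPKM in the group means, with a difference of 0.23 that did not pass (limma adjusted p = 0.158).

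Cd40, a costimulatory receptor of myeloid cells and B cells, had the largest difference in response between the genotypes among the 9 genes, although it did not pass. In Cort+/+ mice CL and MCAO libraries overlapped, with 0.0923, 0.165 and 0.108 RPKM in CL and 0.0838, 0.164 and 0.151 RPKM in MCAO. The CL libraries of Cort-/- mice held 0.0680, 0.0504 and 0.0621 RPKM, below every library of the other groups, and MCAO held 0.231, 0.146, 0.203, 0.249 and 0.245 RPKM. The mean ratio of MCAO to CL was 1.10 in Cort+/+ and 3.57 in Cort-/- mice. Read counts were low, at 5 to 17 in CL and 9 to 31 in MCAO libraries. Cd40 rose in Cort-/- mice by a log2 fold change of 0.96 ± 0.20 (SE, limma adjusted p = 0.0293), and the call was lost in 7 of 24 alternatives, 6 of them fits that left out a Cort-/- library. In Cort+/+ mice the value was 0.07 ± 0.22 (limma adjusted p = 0.998). The difference between these responses was 0.90 (95% confidence interval 0.26 to 1.53), which did not pass over all genes (limma adjusted p = 1). Both hemispheres entered it, with Cort-/- minus Cort+/+ differences of -0.46 ± 0.22 in CL and 0.44 ± 0.20 in MCAO, each with a limma adjusted p of 1.

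Among the noncanonical subunits, Nfkb2 rose and Relb did not pass. Nfkb2, which encodes the p100 precursor of p52, measured 0.927, 0.712 and 0.521 RPKM in Cort+/+ CL and 1.10, 1.40 and 0.857 RPKM in Cort+/+ MCAO hemispheres, with the highest CL value above the lowest MCAO value. Levels in Cort-/- mice were 0.852, 0.598 and 0.717 RPKM in CL and 1.40, 1.34, 0.95, 1.60 and 1.42 RPKM in MCAO, without overlap. Over both genotypes its log2 fold change was 0.69 (95% confidence interval 0.36 to 1.02, limma adjusted p = 0.0259), with the call lost in 6 of the 14 fits that left out 1 library. For Cort-/- mice alone 0.80 ± 0.20 (SE) did not pass (limma adjusted p = 0.0728), but 0.91 did without MCAO replicate 3 (limma adjusted p = 0.0279), as did 0.97 with limma voom (adjusted p = 0.0199) and 0.80 among genes averaging 0.5 RPKM or more (limma adjusted p = 0.0342).

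RelB is the partner of p52 in the noncanonical dimer. Relb measured 1.90, 2.43 and 2.22 RPKM in Cort+/+ CL, 2.52, 3.19 and 2.33 RPKM in Cort+/+ MCAO, 2.49, 2.41 and 2.59 RPKM in Cort-/- CL, and 3.13, 2.98, 2.45, 3.53 and 3 RPKM in Cort-/- MCAO hemispheres. The lowest MCAO library of each genotype lay within the range of its CL libraries. Its difference over both genotypes was 0.27 (95% confidence interval 0.07 to 0.47, limma adjusted p = 0.165).

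**Figure D2:**
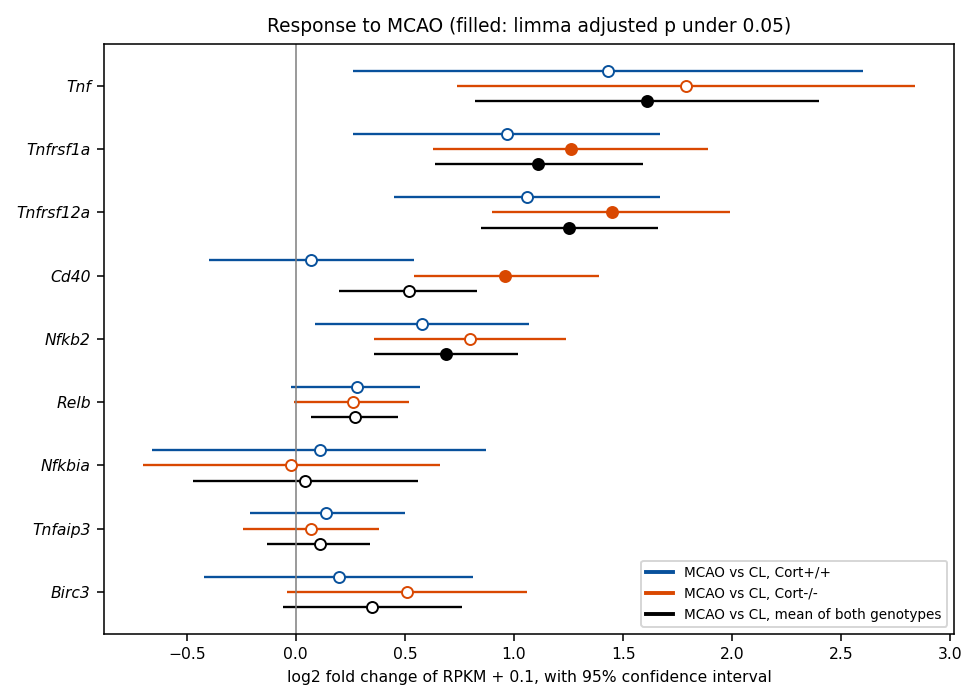
Log2 fold change of RPKM + 0.1 between MCAO and CL hemispheres for the 9 genes (horizontal axis), with 95% confidence intervals, in Cort+/+ mice (blue), Cort-/- mice (orange) and as the mean of both (black), where filled points passed at a limma adjusted p under 0.05. The intervals of Nfkbia and Tnfaip3 span 0 in all 3 comparisons, and those of Tnfrsf12a lie above 0 in all 3.

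The feedback inhibitors did not pass in any comparison. Nfkbia measured 19.2, 9.80 and 7.98 RPKM in Cort+/+ CL and 11.4, 17.0 and 9.70 RPKM in Cort+/+ MCAO hemispheres. Cort-/- libraries held 14.8, 10 and 18.9 RPKM in CL and 13.8, 15.9, 8.66, 13.7 and 20.1 RPKM in MCAO. The 4 ranges overlapped, and the lowest of the 14 libraries as well as the highest but one were CL libraries of Cort+/+ mice. Its log2 fold change was 0.04 over both genotypes (95% confidence interval -0.47 to 0.56, limma adjusted p = 0.971), an interval that still holds rises and falls of moderate size. The direction turned in 5 of the 14 fits that left out 1 library, with values from -0.09 to 0.23. The highest of these values came without Cort+/+ CL replicate 1, which held 19.2 RPKM. In Cort+/+ mice alone the value was 0.11, and 0.48 without that library, and neither passed.

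Tnfaip3, the gene of A20, varied less. Its 6 CL libraries spanned 1.09 to 1.53 RPKM and its 8 MCAO libraries 1.13 to 1.71 RPKM. The difference over both genotypes was 0.11 (95% confidence interval -0.13 to 0.34, limma adjusted p = 0.730), with mean ratios of 1.13 in Cort+/+ and 1.05 in Cort-/- mice. Reads were not scarce at these genes, with at least 137 for Tnfaip3 and 361 for Nfkbia in each library.

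Birc3, which encodes the ubiquitin ligase cIAP2 of the receptor complex, also did not pass. It measured 0.838, 0.484 and 0.373 RPKM in Cort+/+ CL, 0.498, 0.930 and 0.533 RPKM in Cort+/+ MCAO, 0.588, 0.468 and 0.488 RPKM in Cort-/- CL and 0.910, 0.678, 0.535, 0.931 and 0.873 RPKM in Cort-/- MCAO hemispheres. Only MCAO replicate 3 of the Cort-/- mice kept these last groups from separating. The difference over both genotypes was 0.35 (95% confidence interval -0.06 to 0.76, limma adjusted p = 0.436), and 0.49 without Cort+/+ CL replicate 1 (limma adjusted p = 0.181).

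Within a library, the receptor could be set against the inhibitor, which removes what the libraries share in scale. Tnfrsf1a stood at 0.394, 0.490 and 0.486 times the level of Nfkbia in Cort+/+ CL and at 0.901, 0.884 and 0.720 times in Cort+/+ MCAO hemispheres. In Cort-/- mice the ratio was 0.335, 0.651 and 0.238 in CL and 1.16, 0.669, 0.995, 1.39 and 0.603 in MCAO. In Cort+/+ mice the ratio separated the hemispheres, where Tnfrsf1a alone did not. In Cort-/- mice it was the other way round, as Tnfrsf1a alone separated them and the ratio of CL replicate 2 lay above that of MCAO replicate 5. The ratio of Tnfrsf12a to Tnfaip3 lay between 1.83 and 2.71 in the 6 CL libraries and between 4.15 and 8.38 in the 8 MCAO libraries. These ratios were formed after the values were seen and were not tested.

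Within Cort-/- mice 3 of the 9 genes passed, all higher (Tnfrsf1a, Tnfrsf12a and Cd40), where 1.72% of all genes were called in either direction, 1.34% were called higher, and 3.03% were called higher among those averaging 0.5 RPKM or more. Within Cort+/+ mice limma called 0 of the 9 genes, where 0.0108% of all genes were called. At an unadjusted p under 0.05 there were 4 (Tnf, Tnfrsf1a, Tnfrsf12a and Nfkb2), and limma voom on the recovered reads called 0, with 5 at an unadjusted p under 0.05. Their medians were 0.80 in Cort-/- and 0.28 in Cort+/+ mice, beside 0 for all genes in each. Every MCAO library lay above every CL library for 5 of the 9 genes in Cort-/- mice (Tnf, Tnfrsf1a, Tnfrsf12a, Cd40 and Nfkb2), beside 4.85% of all genes, for 2 in Cort+/+ mice (Tnf and Tnfrsf12a), beside 5.73%, and for those 2 in both genotypes, beside 2.13%. The averaged comparison uses the libraries of both others, so the 3 are not independent of each other. As the 9 genes were chosen with earlier results known, these counts too are descriptions.

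**Figure D3:**
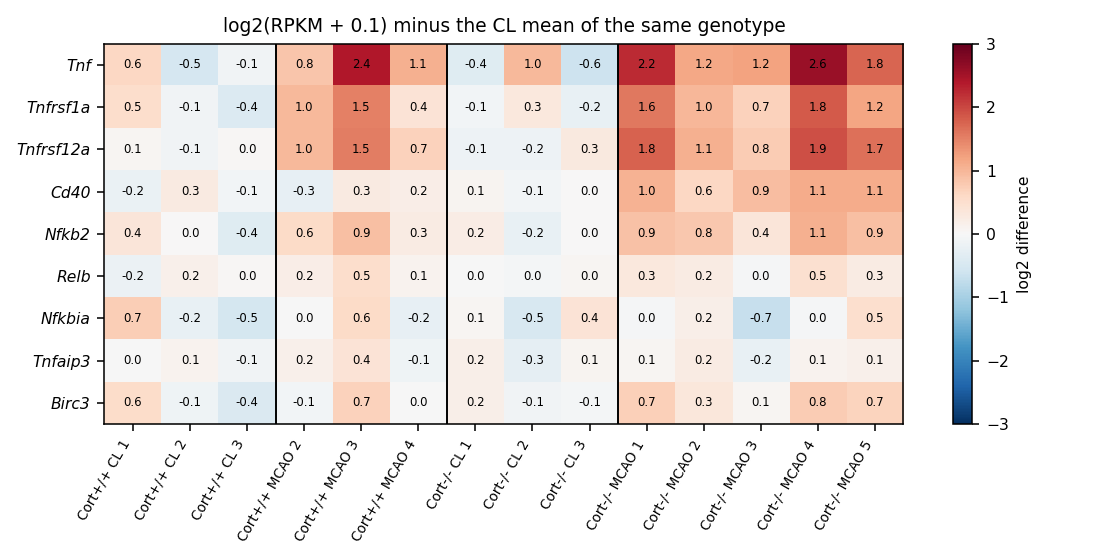
Each cell gives log2(RPKM + 0.1) of a gene (rows) in a library (columns) minus the mean of the CL libraries of the same genotype, with colour from blue (lower) to red (higher). Tnf, Tnfrsf1a, Tnfrsf12a and Nfkb2 are positive in all 8 MCAO libraries, and in Cort-/- MCAO replicate 3 Nfkbia, Tnfaip3 and Relb lie below the CL mean.

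The genotypes themselves did not differ detectably in these genes. Between Cort-/- and Cort+/+ CL hemispheres limma called 0 of the 9 (0.0152% of all genes), with 0 at an unadjusted p under 0.05 and, by limma voom, 0 called and 1 at an unadjusted p under 0.05 (Cd40). Between MCAO hemispheres it called 0 (0.0174% of all genes), with Cd40 the 1 gene at an unadjusted p under 0.05 by either method. The response differed between genotypes for 0 of the 9 (0.00217% of all genes), again with Cd40 the 1 gene at an unadjusted p under 0.05 by either method. The intervals are wide. In MCAO hemispheres the Cort-/- minus Cort+/+ difference was 0.45 for Tnf (95% confidence interval -0.59 to 1.50), 0.31 for Tnfrsf1a (-0.32 to 0.94) and 0.43 for Tnfrsf12a (-0.11 to 0.98), so that differences of 1 on the log2 scale lie within or close to each. The medians of the 9 genes were 0.05 in CL and 0.25 in MCAO hemispheres.

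MCAO libraries of 1 group did not respond evenly. The median of the 9 log2 differences from the CL mean was 0.20, 0.69 and 0.20 in Cort+/+ MCAO replicates 2 to 4, with all 9 genes above the CL mean in replicate 3 and 6 in each of the other two. In Cort-/- mice it was 0.88, 0.62, 0.36, 1.06 and 0.90 in replicates 1 to 5, lowest in replicate 3. Cort+/+ CL replicate 1 had a median of 0.36, above the values of both weaker Cort+/+ MCAO libraries. The heat map of the genes relative to CL shows this pattern library by library.

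Cell type markers moved along. Of 8 microglial markers, 6 rose over both genotypes, and their summed level was 99.5 to 115 RPKM in the 6 CL libraries, 131 to 201 RPKM in Cort+/+ MCAO and 149 to 221 RPKM in Cort-/- MCAO libraries. Of 7 markers of infiltrating monocytes and macrophages 2 rose, with sums of 7.45 to 12.1 RPKM in CL, 10.8 to 22.7 RPKM in Cort+/+ MCAO and 14.1 to 25.7 RPKM in Cort-/- MCAO libraries, and none of the 7 was at 0 in any library. Of 7 astrocyte markers 3 rose, of 7 endothelial markers 2, of 8 neutrophil markers 1 (Csf3r), and 1 of 7 T cell markers fell (Cd4). Limma voom called 4 astrocyte markers, of which 3 rose and Slc1a2 fell. The median of the 8 neutrophil markers was 0.13. Cd4 reached 4.51 RPKM, while Cd3e, Cd3d and Cd3g reached at most 0.0917, 0.0592 and 0.0958 RPKM. Markers of neurons, oligodendrocytes, B cells and red blood cells gave 0 calls with limma, with 3, 3, 1 and 0 at an unadjusted p under 0.05 and 2, 1, 1 and 0 calls by limma voom. The libraries with the lowest microglial sums among MCAO, Cort+/+ replicate 4 (131 RPKM) and Cort-/- replicate 3 (149 RPKM), also had the lowest Tnfrsf1a and Tnfrsf12a levels of their groups. These libraries were not low in microglial markers alone. Their sums were also the lowest of their groups for astrocytes (563 and 588 RPKM) and for infiltrating monocytes and macrophages (10.8 and 14.1 RPKM). The neutrophil gene Ly6g was at 0 in 7 of 14 libraries and the T cell gene Cd3d in 9. The part of cell numbers in the changes of the 9 genes was not tested.

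Several of the genes overlap a transcript on the opposite strand in GENCODE M39 (GRCm39): Tnfrsf1a overlaps Plekhg6, Nfkbia overlaps Gm36634, Nfkb2 overlaps Psd and 4833438C02Rik, Tnfrsf12a overlaps Hcfc1r1, and Tnfaip3 overlaps Gm67161. The library kit keeps strand, but the strand setting of the counting was not given in the sources used here. Over both genotypes Hcfc1r1 had a difference of -0.02 (limma adjusted p = 0.920) and Plekhg6 of 0.14 (limma adjusted p = 0.725), while Psd fell by 0.23 on the log2 scale (limma adjusted p = 0.00804). For 4833438C02Rik the difference was 0.11 (limma adjusted p = 0.817) and for Gm36634 0.16 (limma adjusted p = 0.509). In GRCm39 the genes lie on chromosomes 2 (Cd40, 164897544-164914868), 6 (Tnfrsf1a, 125325566-125339632), 7 (Relb, 19339017-19363425), 9 (Birc3, 7845790-7873229), 10 (Tnfaip3, 18874201-18891405), 12 (Nfkbia, 55535332-55539432), 17 (Tnf, 35418357-35420983 and Tnfrsf12a, 23894416-23896468) and 19 (Nfkb2, 46292759-46303812). None is on chromosome 4, where Cort lies.

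The wider pathway was described with 93 genes in 11 roles, the 9 genes included. Over both genotypes 19 rose and 1 fell, with a median of 0.22, and 15 rose and 1 fell among the 84 others. Beside these, 2.52% of all genes were called higher, and 5.52% of those averaging 0.5 RPKM or more. The list was chosen with earlier results of these data known, so its counts and those of its roles are descriptions and test nothing. Of 10 receptor genes 4 rose: besides Tnfrsf1a and Tnfrsf12a these were Tnfrsf1b, the gene of TNF receptor 2 (0.84, limma adjusted p = 0.00812), and Ltbr, the lymphotoxin beta receptor (0.68, limma adjusted p = 0.0379). Tnfrsf1b lies 4.27 Mb from Cort on chromosome 4, and in CL hemispheres of 3 Cort+/+ and 3 Cort-/- mice its means ± SD were 1.33 ± 0.299 and 1.04 ± 0.0725 RPKM (limma adjusted p = 1). Tnf was the 1 ligand of 9 to pass. Of the 3 genes that act on ligand release, Adam17, the protease that sheds TNF, rose by 0.34 (limma adjusted p = 0.0225) and its partner Rhbdf2 by 0.63 (limma adjusted p = 0.05, just under the threshold before rounding), and the inhibitor Timp3 was at 0.03 (limma adjusted p = 0.817).

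Downstream, 3 of 7 genes of the cell death arm rose: Casp8 (1.11, limma adjusted p = 0.00576), the necroptosis kinase Ripk3 (1.46, limma adjusted p = 0.0254) and the survival gene Bcl2a1b (2.01, limma adjusted p = 0.00088), which has near-identical copies whose reads can be split. Of 12 receptor complex genes limma called 0, with a median of 0.06, 3 at an unadjusted p under 0.05 and 0 called by limma voom. Of 10 kinases it called 0, with a median of -0.01, 2 at an unadjusted p under 0.05 and 1 called by limma voom (Ikbke). Examples are Ripk1 (0.38, limma adjusted p = 0.190), Tradd (0.16, limma adjusted p = 0.281) and Map3k14, the kinase NIK of the noncanonical arm (0.19, limma adjusted p = 0.591). Beside Nfkb2, Nfkb1 rose by 0.22 (limma adjusted p = 0.0376), and Rela (0.16) and Rel (0.11) did not pass.

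In the IkappaB family and among the ubiquitin editing and RNA decay genes few passed. Of 6 IkappaB family genes 1 rose, Bcl3, an atypical member that works in the nucleus (1.91, limma adjusted p = 0.0113), and the median of the family was 0.10. Nfkbiz (0.26, limma adjusted p = 0.513) and Nfkbie (0.15, limma adjusted p = 0.635) did not pass. Of 9 genes of ubiquitin editing, 0 rose and the deubiquitinase gene Cyld fell by 0.25 (limma adjusted p = 0.0172), from a mean of 23.3 to 20.3 RPKM in Cort+/+ and from 23.9 to 19.5 RPKM in Cort-/- mice. The genes of the RNA decay regulators, Zfp36 (0.61, limma adjusted p = 0.206) and Zc3h12a (0.50, limma adjusted p = 0.207), passed with neither limma nor limma voom, and both had an unadjusted p under 0.05.

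Of 20 NF-kappaB target genes 6 rose, with a median of 0.51: the chemokine genes Cxcl10 (3.01, limma adjusted p = 0.00586) and Ccl2 (2.79, limma adjusted p = 0.0172), the protease gene Plau (1.35, limma adjusted p = 0.000854), Irf1 (0.62, limma adjusted p = 0.0404), Tnfaip8 (0.45, limma adjusted p = 0.0167) and the adhesion gene Vcam1 (0.44, limma adjusted p = 0.00739). Cxcl10 had means of 0.202 and 2.11 RPKM in CL and MCAO hemispheres of Cort+/+ mice, and of 0.257 and 4.06 RPKM in Cort-/- mice. Within Cort-/- mice 10 genes of the pathway rose and 1 fell, beside 1.34% of all genes called higher. Within Cort+/+ mice limma called 0 of the 93, beside 0.0108% of all genes, with 23 at an unadjusted p under 0.05 and 1 called by limma voom.

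**Figure D4:**
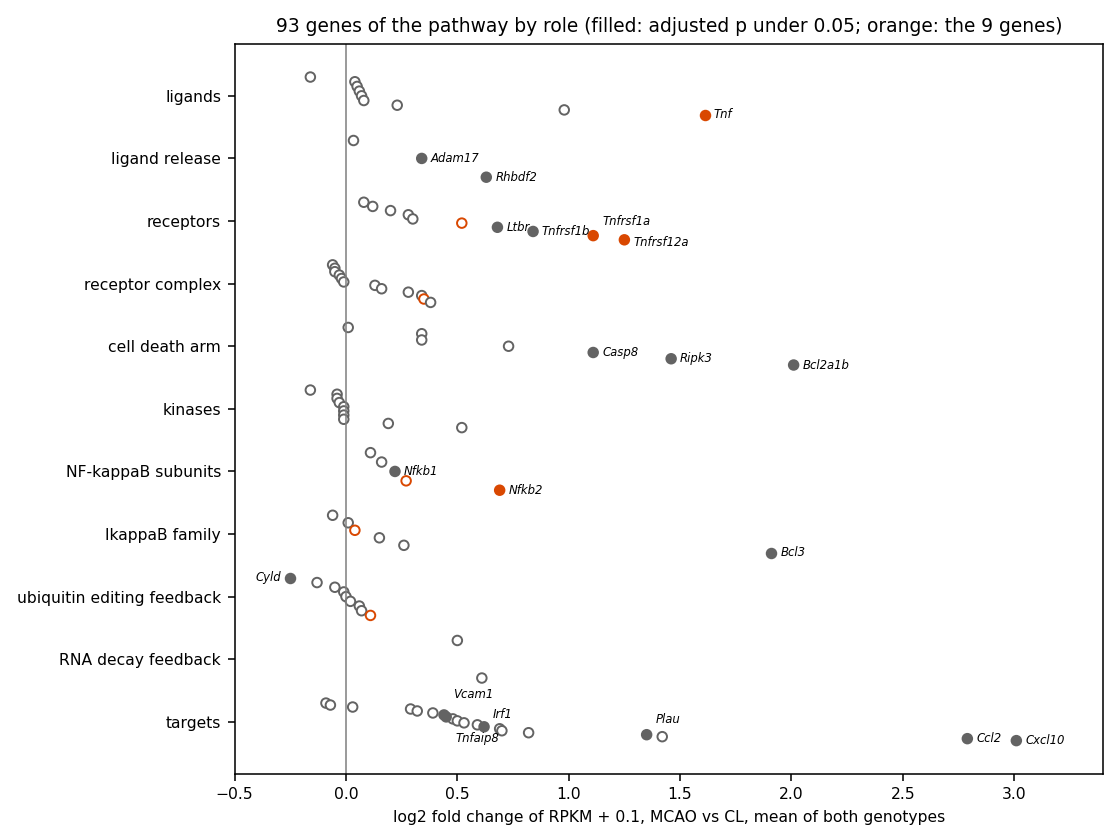
Log2 fold change of RPKM + 0.1 between MCAO and CL hemispheres (horizontal axis, mean of both genotypes) of the 93 pathway genes by role (rows), with filled points for a limma adjusted p under 0.05 and orange for the 9 genes. Receptors, targets and cell death genes reach the right, kinases and receptor complex genes lie near 0, and Cyld is the called gene below 0.

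How the 9 genes vary from library to library, apart from the groups, was described by the deviations of log2(RPKM + 0.1) from the group means over the 14 libraries. Tnf and Tnfrsf1a deviated together (r = 0.84), as did Birc3 and Nfkb2 (r = 0.90) and Nfkb2 and Nfkbia (r = 0.83). Nfkbia and Tnf did so weakly (r = 0.21), and Tnfaip3 and Tnf not at all (r = 0.01). Libraries share depth and dissection, and these coefficients are descriptions over 14 points that share 4 group means.

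Among 15063 genes averaging 1 RPKM or more, the 3 closest to each of the 9 genes by this measure had r from 0.83 to 0.99. Tnfrsf1a was closest to Ggta1 (r = 0.99), Socs3, a brake on cytokine signaling (r = 0.98), and Pros1 (r = 0.98), which rose with MCAO like the receptor (0.90, 1.37 and 0.90, limma adjusted p = 0.0278, 0.0220 and 0.0282). Nfkbia was closest to Ddit4, an inhibitor of mTOR signaling (r = 0.99), Sgk1, the serum- and glucocorticoid-regulated kinase (r = 0.97), and Pdk4, a regulator of pyruvate use (r = 0.95). None of these passed between hemispheres (-0.26, -0.20 and -0.09, limma adjusted p = 0.720, 0.871 and 0.909), while Ddit4 spanned 13.2 to 43.1 RPKM across the 14 libraries. The closest genes of the others were Setd1a, Mpg and Acot1 for Tnf, Xaf1, Shisa5 and Crtc2 for Tnfrsf12a, Il1r1, Csrnp1 and Galnt15 for Nfkb2, Trip10, Gm45193 and Kank2 for Relb, Vash1, Ubn1 and Jun for Tnfaip3, Lrg1, Tmem43 and Tbrg4 for Birc3, and ENSMUSG00000123602, Csgalnact2 and Cipc for Cd40, with r of 0.84 or less.

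**Figure D5:**
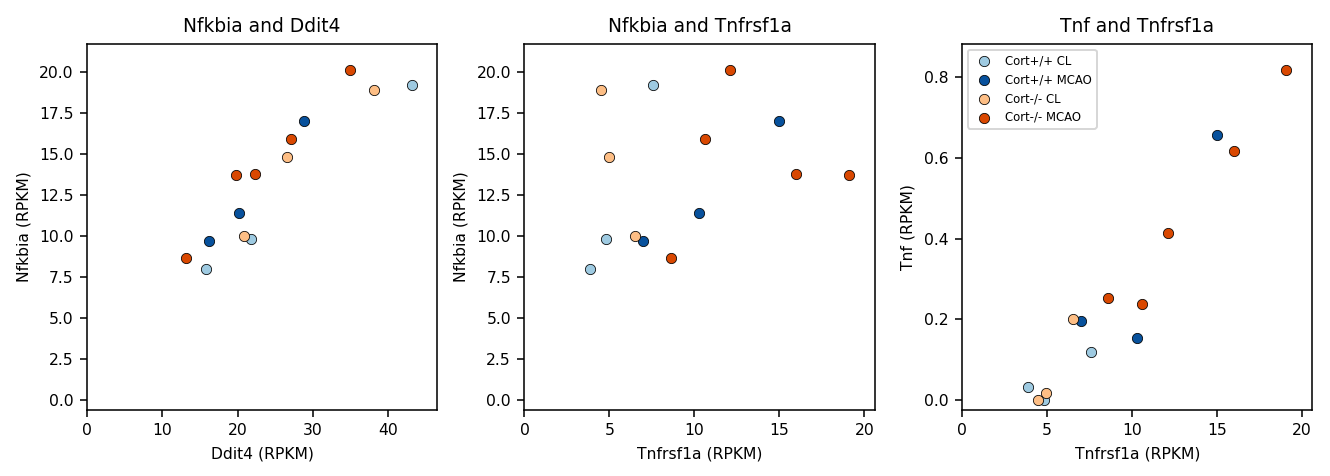
Levels in RPKM (linear axes) of pairs of genes in the 14 libraries, with 1 point per library coloured by group: Nfkbia against Ddit4 (left), Nfkbia against Tnfrsf1a (middle) and Tnf against Tnfrsf1a (right). Nfkbia follows Ddit4 in all 4 groups with hemispheres mixed along the trend, whereas Tnf and Tnfrsf1a are both high in MCAO libraries.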

How the data were processed

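The authors aligned reads of stranded polyA libraries to GRCm39, counted them on genes with GENCODE annotation and deposited RPKM values per library, without pooling. Gene lengths and strand setting were not given in the sources used here. The values divide into whole reads (100% of 495656 values above 0, within 1e-05 reads), which gave the depth.

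Genes above 0 in at least 2 libraries (46102 of 46904) were fitted on log2(RPKM + 0.1) with limma 3.58.1 in R 4.3.3, as 1 model of the 4 groups with moderated variances and trend. This pseudocount understates changes of low genes such as Tnf. The p-values set each group difference against the spread between libraries within groups, pooled over the 4 groups, and take the libraries as independent. A count model was not the main test because the deposited values are RPKM. Steps were tested on simulated data.

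The 9 genes and the lists were chosen with earlier results of these data known. Named pathway genes are up to 3 per role with the lowest p in the mean response and a mean of at least 0.5 RPKM; Ripk3, Ccl2, Irf1 and Tnfaip8 are named in addition as the remaining called genes of their roles, chosen after their values were seen. Alternatives were other pseudocounts, filters, scalings, library weights, a replicate block, limma voom on the recovered reads, fits of the compared groups alone, and fits without each library. Positions are from GENCODE M39 and promoters from RefSeq. Figures used Python 3.11.15 with matplotlib 3.10.9.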

Additional observations from a re-analysis of the deposited data

How the results depend on the processing

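Over both genotypes 4 of the 9 genes were called. The count was 2 to 4 when each library was left out in turn (2 without Cort-/- CL replicate 3, Cort+/+ CL replicate 2 or 3, or Cort+/+ MCAO replicate 3). It was 3 when only genes averaging 0.5 RPKM or more were fitted, a filter that removes Tnf and Cd40 before the test. With a pseudocount of 1 RPKM it was also 3, as Tnf was tested and lost its call. Limma voom called 5, which added Cd40 (0.98, limma adjusted p = 0.0343). Within Cort-/- mice 3 were called, 4 with limma voom, which added Nfkb2, 0 when only the compared groups were fitted, and 0 to 4 with a library left out (0 without Cort-/- CL replicate 1 or 2, and 4 without Cort-/- MCAO replicate 3). The call of Tnfrsf1a there rests on a p at the threshold. In Cort+/+ mice and between genotypes 0 were called in every fit. Pathway genes called over both genotypes went from 20 to 30 with limma voom, and to 10 without Cort+/+ MCAO replicate 3, and in Cort-/- mice from 11 to 20 with limma voom, 18 among genes averaging 0.5 RPKM or more, 4 with a pseudocount of 1 RPKM and 1 when only the compared groups were fitted. With a library left out these counts were 10 to 26 and 2 to 18 (2 without Cort-/- CL replicate 1, 18 without Cort-/- MCAO replicate 3), and in Cort+/+ mice 0 to 2. All genes called were 133 to 1191 against 792 in Cort-/- mice with a library left out, 1389 with limma voom, 1290 averaging 0.5 RPKM or more and 86 with the compared groups alone, and in Cort+/+ mice 3 to 160 against 5 (160 without MCAO replicate 4) and 43 with limma voom. Over both genotypes they were 941 to 1913 against 1579.

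Same-numbered CL and MCAO libraries did not consistently deviate together (correlations 0.32 and -0.14 in Cort+/+, -0.06, -0.24 and 0.03 in Cort-/- mice, over 15063 genes). With so few libraries per group these correlations cannot settle whether the numbers pair the samples. Of the 6 CL libraries 1 correlated best with the MCAO library of its own number and 5 with another, at 0.23 to 0.40. Which hemispheres came from the same mouse is not given by the labels, so no other pairing was fitted, and the fits treat the libraries as independent. With the replicate block 2 genes were called in Cort-/- mice, as Tnfrsf1a then had a limma adjusted p of 0.0502, and 4 over both genotypes.

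Directions turned only where the reported difference was 0.20 or less in size, the largest being that of Birc3 in Cort+/+ mice (0.20). In Cort-/- mice Tnfaip3 was at -0.02 with quantile normalization, and Nfkbia at 0.01 rescaled to TPM and 0.07 with limma voom. Between CL hemispheres Birc3 was at 0.03 with library weights. Between MCAO hemispheres Tnfaip3 was at 0.05 in TPM, 0.00 with median ratios, 0.01 with weights and 0.02 with limma voom. The cause was not tested. With a library left out, values of both signs were found as follows. In Cort+/+ mice Birc3 ran from -0.05 to 0.48, Cd40 from -0.03 to 0.23 and Nfkbia from -0.15 to 0.48. In Cort-/- mice Nfkbia ran from -0.26 to 0.19 and Tnfaip3 from -0.06 to 0.16, and over both genotypes Nfkbia from -0.09 to 0.23. Between CL hemispheres Birc3 ran from -0.27 to 0.22, Nfkb2 from -0.16 to 0.20, Tnf from -0.39 to 0.41, Tnfaip3 from -0.03 to 0.20, Tnfrsf12a from -0.10 to 0.12 and Tnfrsf1a from -0.19 to 0.28. Between MCAO hemispheres Nfkbia ran from 0.00 to 0.40 and Tnfaip3 from -0.14 to 0.13. In the difference of responses Nfkbia ran from -0.49 to 0.13, Relb from -0.11 to 0.11 and Tnfaip3 from -0.21 to 0.06. No scaling moved the median of all genes by over 0.1. Depth limits Tnf and Cd40, with at most 56 and 31 reads in a library.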
